A study of Arabidopsis thaliana with 8 samples.

Results

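The genes described here are a set that plants switch on in darkness and sugar shortage, together with their neighbours in metabolism: the dark-inducible (DIN) genes, the breakdown of branched-chain amino acids and proline, the glutamate dehydrogenases, class II trehalose phosphate synthases, subunits of the energy-sensing kinase SnRK1 and the ATG8 family of autophagy. They were chosen by gene identifier, with earlier results of these data known. Of 35 identifiers, 34 were among the 19853 genes of the expression table, and DIN2 (AT3G60140) was not analysed here. RNA was sequenced from Arabidopsis thaliana inflorescences carrying flowers up to stage 8, in the ag-10 fhy3-68 double mutant, the fhy3-68 mutant, the ag-10 mutant and the Ler wild type (Landsberg erecta), with 2 libraries per genotype. The series describes them as biological replicates. The labels give neither the lesions nor plant age, light regime or hour of harvest. FHY3, a protein related to transposases, regulates transcription in the far-red light response. AGAMOUS (AG) is the floral homeotic gene of stamens and carpels. The series title names FHY3 binding in floral tissue, and the 4 genotypes set apart the effects of FHY3 and AG on transcript levels.

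Green tissue kept in the dark runs short of sugar within hours. The kinase SnRK1 then becomes active and, with basic leucine zipper (bZIP) factors, turns on genes that save nitrogen as asparagine, burn amino acids in mitochondria and recycle cell contents by autophagy; trehalose 6-phosphate, a signal of sucrose supply, holds SnRK1 back. Many of these genes are also read in senescing leaves.

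Values are read counts normalised to 1000000 per library, and between 12322061 and 16816619 reads per library fell in listed genes. FHY3 itself stood at 85.8 and 91.8 in ag-10 fhy3-68, 70.5 and 93.0 in fhy3-68, 104 and 103 in ag-10, and 103 and 110 in Ler. These transcript levels do not check the genotype, because the lesion is not given. The markers of young floral buds (AP1, AP3, PI, LFY, SEP3 and WUS, 6 of 6 listed) were all present, with summed levels of 893 to 896 in ag-10 fhy3-68, 820 to 901 in fhy3-68, 939 to 948 in ag-10 and 912 to 929 in Ler. The fhy3-68 libraries stood apart from each other more than any other pair: 14 of the 34 genes differed by over 1 on the log2 scale between them, against 4.45% of all genes. In bulk tissue, fewer cells of a type and less RNA per cell cannot be told apart.

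The set was higher wherever FHY3 was mutated. The FHY3 average effect is the mean of 2 differences, ag-10 fhy3-68 minus ag-10 and fhy3-68 minus Ler, on the log2(value + 0.5) scale. By this measure 17 of the 34 genes rose and 0 fell, where 17.9% of all genes were called, 10.6% higher and 7.34% lower (limma, Benjamini-Hochberg adjusted p under 0.05 over all genes). The median difference was 0.82 over the 34 genes and -0.01 over all genes. For 24 of the 34 genes all 4 libraries with fhy3-68 lay above all 4 without it, and for 0 genes below, against 14.3% of all genes above and 12.9% below. Some of the 24 were nearly level at the margin, as MCCA (39.36 against 39.35), DIN9 (4.12 against 4.09) and ATG8G (18.23 against 18.15). Because the set was chosen with earlier results of these data known, these shares describe it and are not a test of it. By role, the rises covered 7 of the 8 genes SEN1, ASN1, DIN10, DIN9, KFB50, BT2, AT3G15450 and MEE14, grouped here as dark-induced genes, the 4 class II trehalose phosphate synthases of the set, 3 of 9 genes of branched-chain amino acid and proline breakdown and 3 of 9 ATG8 genes. Class II has members outside the set: TPS6 rose, TPS5 fell and TPS7 was not called. DIN3 and DIN4 are counted with branched-chain breakdown, the pathway they act in; of the 6 DIN genes measured, 3 rose (SEN1, ASN1 and DIN10). Of the 2 glutamate dehydrogenases and the 2 SnRK1 subunits, limma called 0; 1 of each pair, GDH2 and AKINBETA1, had an unadjusted p under 0.05 and was called by edgeR and DESeq2.

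**Figure D1:**
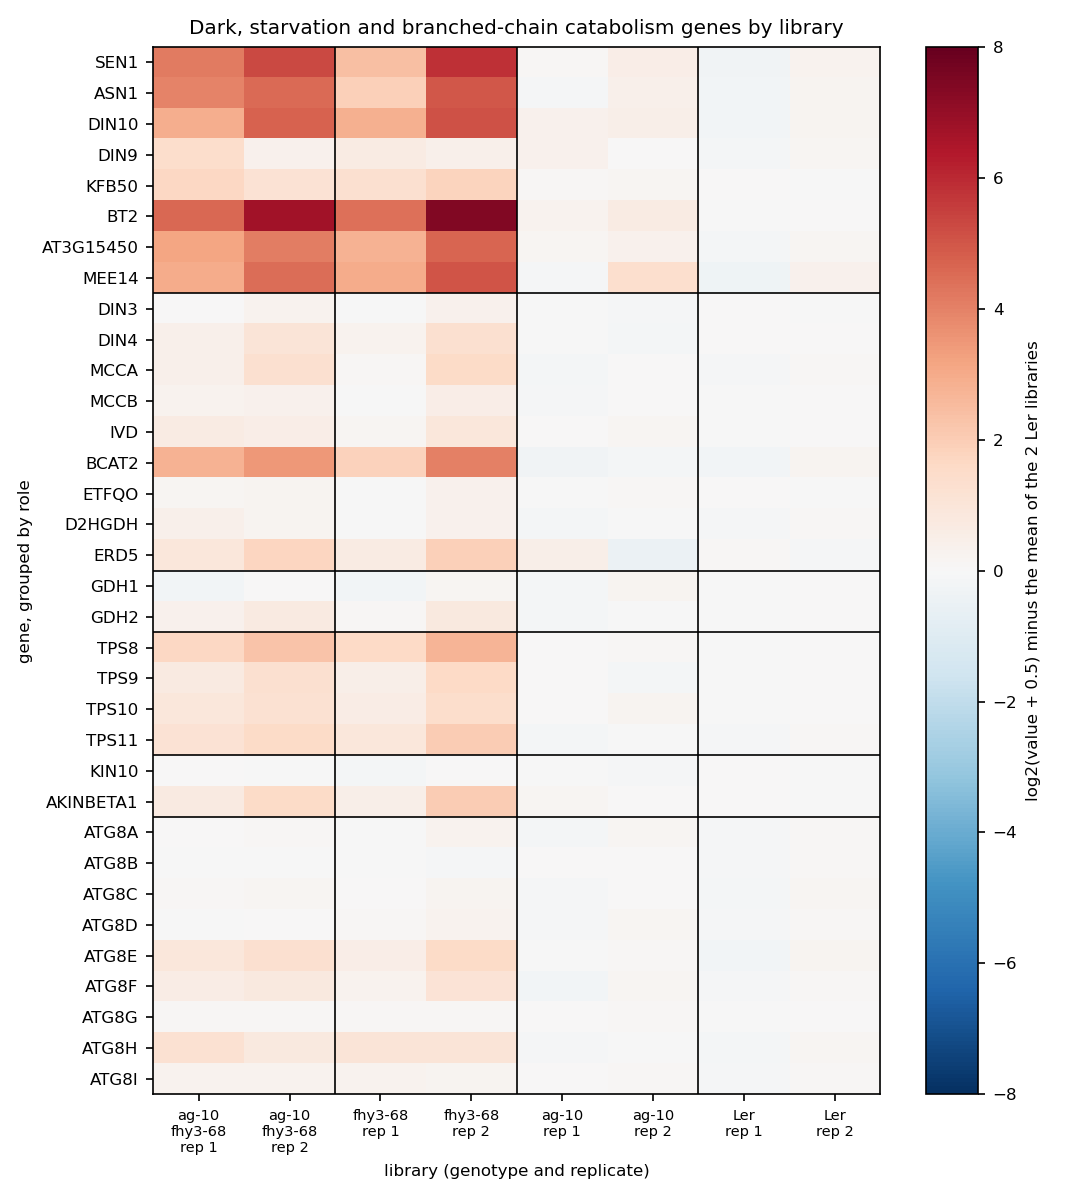
Level of each of the 34 genes (rows, grouped by role) in each of the 8 libraries (columns), as log2(value + 0.5) minus the mean of the Ler libraries. The median gene lay at 0.68 and 0.92 in the ag-10 fhy3-68 libraries, 0.38 and 1.18 in the fhy3-68 libraries, -0.02 and 0.08 in the ag-10 libraries and -0.07 and 0.07 in the Ler libraries.

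In the single comparisons fewer genes passed. In ag-10 fhy3-68 against ag-10, 5 of 34 genes rose and 0 fell (14.7%, against 1.5% of all genes called and 0.992% higher, 0.509% lower): AT3G15450, ATG8H, BCAT2, KFB50 and TPS8. In fhy3-68 against Ler, 7 rose and 0 fell (20.6%, against 3.05% of all genes called and 2.26% higher, 0.786% lower): AT3G15450, ATG8H, BT2, DIN10, KFB50, MEE14 and TPS8. The comparisons share no library, and 4 genes were called in both: AT3G15450, ATG8H, KFB50 and TPS8. They do share 1 estimate of the spread. Most of the other genes lay on the same side, with 32 of 34 higher in ag-10 fhy3-68 than in ag-10 and 31 of 34 higher in fhy3-68 than in Ler. These counts depended on single libraries, as did the counts over all genes. Every library enters the shared estimate of the spread, so a count can change where the left-out library is not one of those compared. With one library left out, the median log2 fold change of the 34 genes ran from 0.61 to 0.94 in ag-10 fhy3-68 against ag-10. It ran from 0.37 to 1.17 in fhy3-68 against Ler and from 0.6 to 1.04 on average. In fhy3-68 against Ler 0 genes were called without either Ler library and 2 without fhy3-68 replicate 2. In ag-10 fhy3-68 against ag-10 0 were called without either Ler library, either ag-10 library or ag-10 fhy3-68 replicate 1, 1 without ag-10 fhy3-68 replicate 2 and 18 without fhy3-68 replicate 2. The average effect called 11 without either Ler library. The highest count of each came without fhy3-68 replicate 1, where DIN3, DIN4, MCCA, MCCB, ETFQO, D2HGDH, GDH2 and AKINBETA1 were added to the 17 genes that rose on average.

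**Figure D2:**
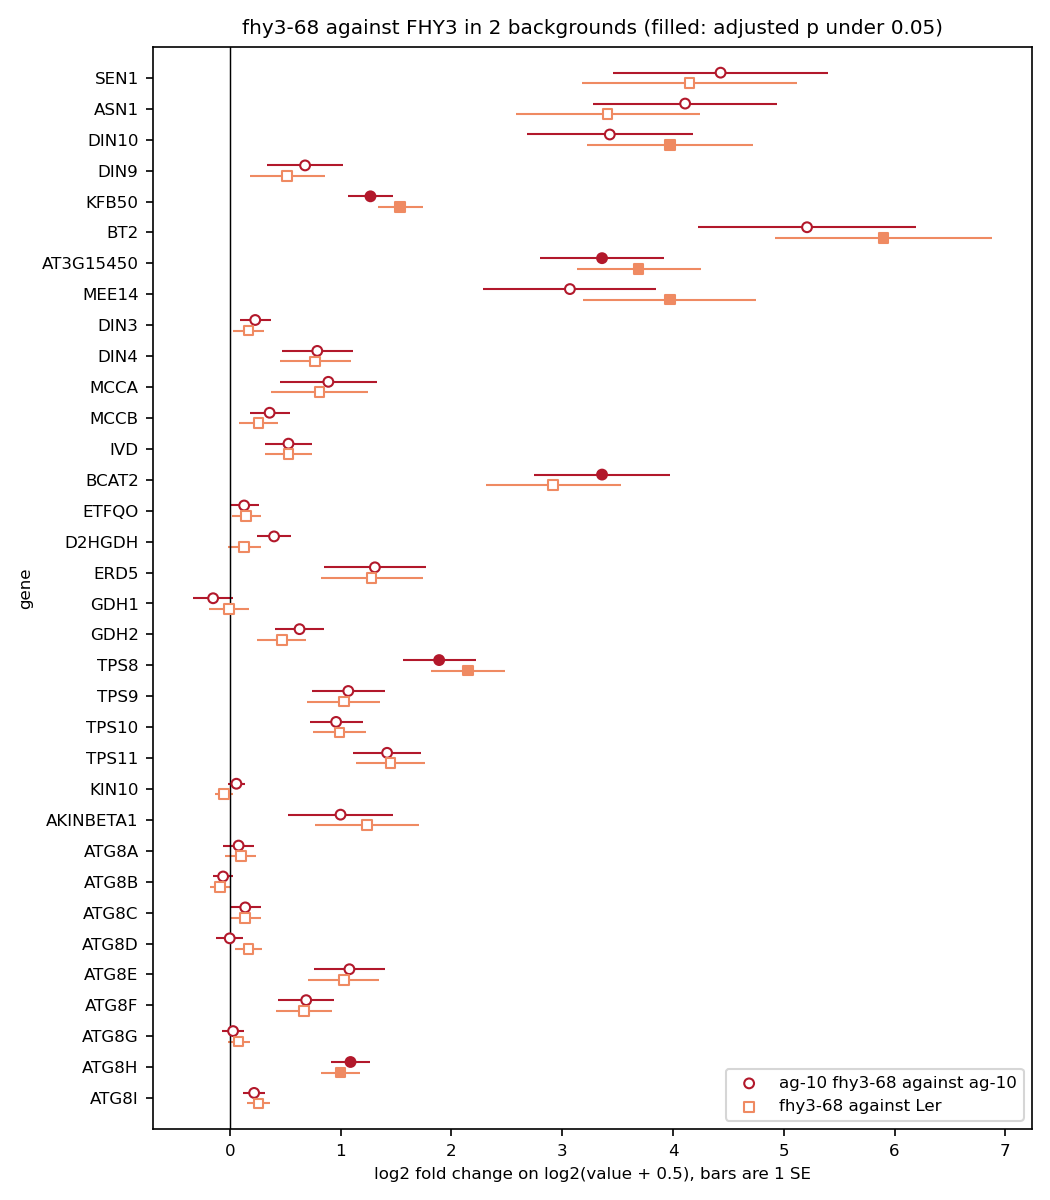
Log2 fold change of each gene on the log2(value + 0.5) scale, with bars of 1 standard error, in ag-10 fhy3-68 against ag-10 (circles, n = 2 and 2 libraries) and in fhy3-68 against Ler (squares, n = 2 and 2); filled symbols passed an adjusted p of 0.05 (limma). BT2 lies farthest right, at 5.21 in ag-10 fhy3-68 and 5.90 in fhy3-68, while KIN10 and most ATG8 genes lie near 0.

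The 8 dark-induced genes had a median average effect of 3.61, the highest of the 6 roles, and DIN3 and DIN4 are not among them. SEN1 (AT4G35770, DIN1), a gene read in darkened and ageing leaves, stood at 57.2 and 129 in ag-10 fhy3-68, 17.1 and 191 in fhy3-68, 2.96 and 4.14 in ag-10, and 2.13 and 3.57 in Ler. All 4 fhy3-68 libraries lay above the other 4, although the fhy3-68 replicates differed 11.1-fold. The average effect was 4.29 (SE 0.69, limma adjusted p = 0.00963), while neither single comparison passed (4.43, SE 0.97, limma adjusted p = 0.0728 in ag-10 fhy3-68 against ag-10, and 4.15, SE 0.97, limma adjusted p = 0.0626 in fhy3-68 against Ler).

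ASN1 (AT3G47340, DIN6) encodes the asparagine synthetase that stores nitrogen in a carbon-poor cell. It stood at 108 and 160 in ag-10 fhy3-68, 25.0 and 213 in fhy3-68, 5.92 and 8.58 in ag-10, and 5.53 and 7.46 in Ler. The groups did not overlap, and the average effect was 3.76 (SE 0.59, limma adjusted p = 0.00915); the single comparisons gave 4.11 (SE 0.83) in ag-10 fhy3-68 and 3.41 (SE 0.83) in fhy3-68, with limma adjusted p of 0.0622 and 0.0676. DIN10 (AT5G20250), of the raffinose synthase family, reached 177 and 603 in ag-10 fhy3-68 and 167 and 788 in fhy3-68, against 28.9 and 31.0 in ag-10 and 19.2 and 26.9 in Ler. Replicate 2 was the higher one in each genotype, and every fhy3-68 library exceeded every other. Its average effect was 3.70 (SE 0.53, limma adjusted p = 0.0076). In fhy3-68 against Ler DIN10 rose by 3.97 (SE 0.75, limma adjusted p = 0.043), and in ag-10 fhy3-68 against ag-10 its 3.43 (SE 0.75, limma adjusted p = 0.0736) missed the threshold.

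DIN9 (AT1G67070), a phosphomannose isomerase, was the one of these 8 genes that was not called on average. It was read at 9.04 and 4.12 in ag-10 fhy3-68, 5.17 and 4.32 in fhy3-68, 4.09 and 3.22 in ag-10, and 2.77 and 3.57 in Ler. The groups did not overlap, but the lowest fhy3-68 library and the highest other library were nearly level, and the average effect of 0.60 (SE 0.24, limma adjusted p = 0.117) was not called. Without ag-10 fhy3-68 replicate 2 it was 0.86 and passed.

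BT2 (AT3G48360), named for its BTB and TAZ domains, has a transcript known to fall after sugar is given. It was nearly silent where FHY3 was intact: 15.4 and 69.0 in ag-10 fhy3-68 and 13.0 and 111 in fhy3-68, against 0.28 and 0.54 in ag-10 and 0.14 and 0.16 in Ler. The Ler values lie under the level of 3 reads in a library (0.179 to 0.238). Summed over libraries, ag-10 fhy3-68 had 1382 reads against 11 in ag-10, a ratio of 109 (exact 95% interval 60.6 to 219), and fhy3-68 had 1721 reads against 4 in Ler, a ratio of 408 (159 to 1500); these intervals cover counting error only. On the log2(value + 0.5) scale, which understates such a change, the average effect was 5.55 (SE 0.69, limma adjusted p = 0.00539).

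KFB50 (AT3G59940), an F-box protein with Kelch repeats, had the smallest adjusted p of the set. It stood at 108 and 74.1 in ag-10 fhy3-68, 83.0 and 115 in fhy3-68, 35.8 and 37.8 in ag-10, and 34.1 and 32.5 in Ler. Every fhy3-68 library was clearly above the others, and here replicate 1 was the higher one in ag-10 fhy3-68 and replicate 2 in fhy3-68. KFB50 rose by 1.27 (SE 0.20, limma adjusted p = 0.0394) in ag-10 fhy3-68 against ag-10, by 1.54 (SE 0.20, limma adjusted p = 0.0245) in fhy3-68 against Ler and by 1.40 (SE 0.14, limma adjusted p = 0.0034) on average.

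AT3G15450, a protein annotated by its resemblance to aluminium-induced proteins, stood at 756 and 1430 in ag-10 fhy3-68, 570 and 2093 in fhy3-68, 93.1 and 109 in ag-10, and 75.4 and 94.2 in Ler. On the log2 scale its replicates differed by 0.92 in ag-10 fhy3-68 and by 1.88 in fhy3-68, less than the genotypes did. It rose by 3.36 (SE 0.56, limma adjusted p = 0.0432) in ag-10 fhy3-68 against ag-10, by 3.69 (SE 0.56, limma adjusted p = 0.0314) in fhy3-68 against Ler and by 3.53 (SE 0.39, limma adjusted p = 0.00424) on average. MEE14 (AT2G15890), first known from an embryo arrest mutant, gave 97.5 and 266 in ag-10 fhy3-68, 93.7 and 396 in fhy3-68, 11.2 and 31.1 in ag-10, and 9.37 and 14.8 in Ler. It did not overlap between the groups, with ag-10 replicate 2 the highest of the lower 4. MEE14 rose by 3.97 (SE 0.78, limma adjusted p = 0.0464) in fhy3-68 against Ler and by 3.52 (SE 0.55, limma adjusted p = 0.00909) on average; the 3.07 (SE 0.78, limma adjusted p = 0.0934) in ag-10 fhy3-68 against ag-10 did not pass.

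**Figure D3:**
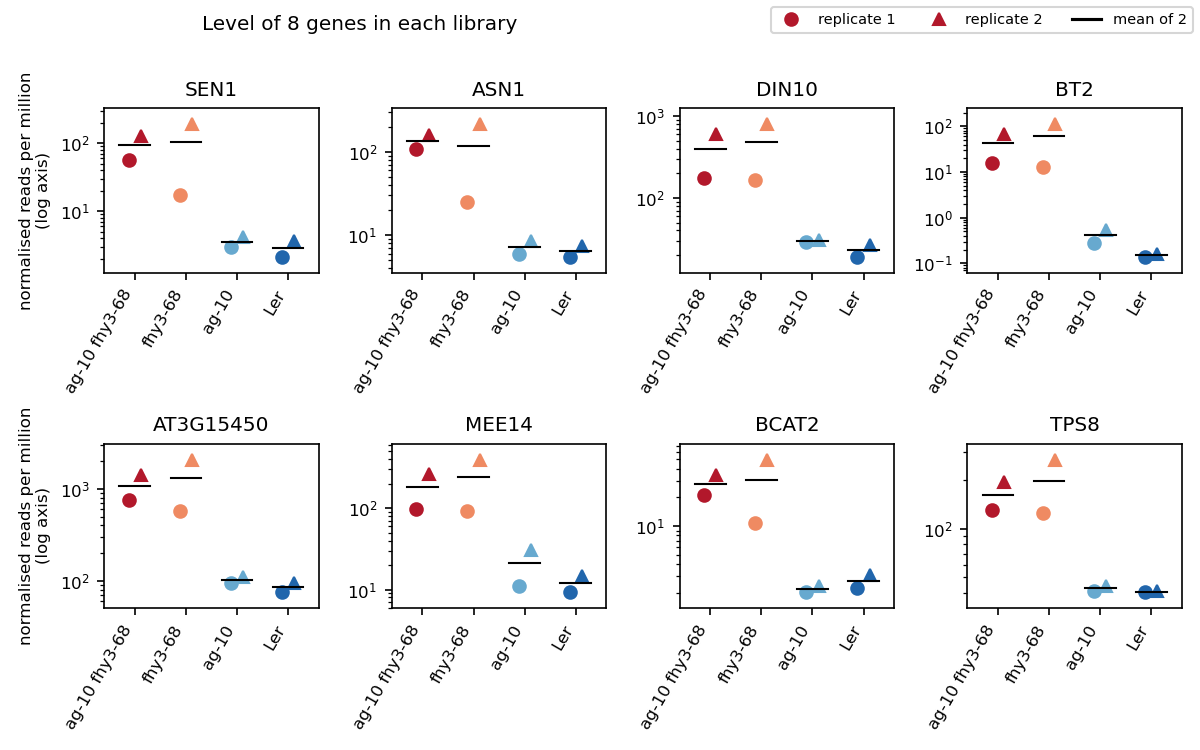
Normalised read counts (log axis, its own range in each panel) of 8 genes in the 2 libraries of each genotype; circles are replicate 1, triangles replicate 2 and lines the mean. In each panel the ag-10 fhy3-68 and fhy3-68 libraries lie above the ag-10 and Ler libraries, for BT2 at 13.0 to 111 against 0.14 to 0.54.

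For 6 genes the proximal promoter is shown, because it holds letters known from sugar or clock control in other work. Each run is 5′ to 3′ on the gene's strand, from 250 bases before to 50 bases after the start of the gene model in the RefSeq annotation of TAIR10.1. The build used for the read counts is not given in the sources used here, so these positions belong to TAIR10.1 only. Capitals mark TTATCC (sugar repressive element), TATCCA, AAATATCT (evening element), CACGTG (G-box), CACGCGC (a site bound by FHY3) or ACTCAT, on either strand. The windows are chr4:16944628-16944927 (plus strand) for SEN1, chr3:17441382-17441681 (minus strand) for ASN1, chr3:17910689-17910988 (minus strand) for BT2, chr3:5212734-5213033 (plus strand) for AT3G15450, chr2:6922112-6922411 (minus strand) for MEE14 and chr2:8108648-8108947 (plus strand) for TPS11.
SEN1: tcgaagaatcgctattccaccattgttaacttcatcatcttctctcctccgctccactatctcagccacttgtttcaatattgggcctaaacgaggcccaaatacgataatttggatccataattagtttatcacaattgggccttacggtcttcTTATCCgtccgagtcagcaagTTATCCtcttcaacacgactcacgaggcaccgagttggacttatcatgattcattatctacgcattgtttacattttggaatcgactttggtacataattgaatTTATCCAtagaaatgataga
ASN1: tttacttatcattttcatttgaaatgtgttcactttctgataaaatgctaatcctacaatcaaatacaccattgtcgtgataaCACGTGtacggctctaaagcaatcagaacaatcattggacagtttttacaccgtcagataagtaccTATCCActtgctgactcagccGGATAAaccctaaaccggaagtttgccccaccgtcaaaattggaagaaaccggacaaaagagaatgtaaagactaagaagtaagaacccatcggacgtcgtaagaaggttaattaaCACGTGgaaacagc
BT2: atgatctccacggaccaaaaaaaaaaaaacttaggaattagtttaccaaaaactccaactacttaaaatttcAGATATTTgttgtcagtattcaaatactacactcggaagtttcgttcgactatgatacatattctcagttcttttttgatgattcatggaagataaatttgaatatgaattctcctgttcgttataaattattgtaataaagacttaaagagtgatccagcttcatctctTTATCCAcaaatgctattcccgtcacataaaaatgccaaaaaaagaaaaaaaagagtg
AT3G15450: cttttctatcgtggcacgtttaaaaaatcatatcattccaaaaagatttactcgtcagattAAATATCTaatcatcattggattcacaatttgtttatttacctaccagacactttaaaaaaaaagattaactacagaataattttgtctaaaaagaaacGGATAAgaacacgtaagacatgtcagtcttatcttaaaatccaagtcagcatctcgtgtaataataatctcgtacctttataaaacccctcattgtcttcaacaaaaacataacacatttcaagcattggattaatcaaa
MEE14: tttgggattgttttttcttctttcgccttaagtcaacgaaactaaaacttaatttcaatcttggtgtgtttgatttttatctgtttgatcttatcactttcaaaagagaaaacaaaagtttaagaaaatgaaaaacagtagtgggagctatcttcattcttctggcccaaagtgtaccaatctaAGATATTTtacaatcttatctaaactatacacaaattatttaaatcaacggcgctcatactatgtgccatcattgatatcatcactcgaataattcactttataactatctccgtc
TPS11: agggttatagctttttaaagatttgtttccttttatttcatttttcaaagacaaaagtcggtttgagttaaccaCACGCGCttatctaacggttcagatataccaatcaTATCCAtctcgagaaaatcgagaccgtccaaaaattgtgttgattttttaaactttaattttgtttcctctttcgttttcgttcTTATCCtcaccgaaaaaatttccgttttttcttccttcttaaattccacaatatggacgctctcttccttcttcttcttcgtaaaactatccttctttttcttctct

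SEN1 holds TTATCC at 3 places, starting 95 and 74 bases before the gene start and at base 31 after it. Over the 34 promoters, 13 (38.2%) hold TTATCC on either strand, against 15.6% of 19544 promoters of listed genes. TATCCA occurs in 16 (47.1%), against 16.5%; both motifs share letters where they form TTATCCA, which 8 of the 34 hold (23.5%, against 7.09%). Of the 17 genes that rose on average, 9 hold TTATCC and 9 hold TATCCA, so matches are not limited to them: MCCB, D2HGDH, AKINBETA1 and ATG8B hold both and were not called. The evening element AAATATCT is in 4 of 34 promoters (11.8%, against 5.84%), those of KFB50, BT2, AT3G15450 and MEE14, and all 4 genes rose. CACGCGC is in 1 of 34 (2.94%, against 1.71%), that of TPS11, with its first base 176 before the start. The G-box, which contains the core ACGT, is in 2 (5.88%, against 8.71%), ASN1 and GDH1. ACGT alone is in 21 (61.8%, against 50.1%), and ACTCAT, known from proline dehydrogenase promoters, in 5 (14.7%, against 13.8%), with ERD5 among them. These are matches of letters in one window of each gene and were not tested.

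Leucine, isoleucine and valine are broken down in mitochondria, and their electrons enter respiration through the ETFQO protein. Of the 9 genes for this route and for proline breakdown, BCAT2, ERD5 and IVD rose, while the other 6 were not called. BCAT2 (AT1G10070), a branched-chain aminotransferase that takes off the amino group, was read at 21.5 and 34.6 in ag-10 fhy3-68, 10.8 and 49.9 in fhy3-68, 2.05 and 2.37 in ag-10, and 2.27 and 3.09 in Ler. The lowest fhy3-68 library was more than 3 times the highest library without the mutation. BCAT2 rose by 3.36 (SE 0.61, limma adjusted p = 0.0499) in ag-10 fhy3-68 against ag-10 and by 3.14 (SE 0.43, limma adjusted p = 0.00685) on average. Its 2.92 (SE 0.61, limma adjusted p = 0.0513) in fhy3-68 against Ler lay just outside the threshold. BCAT1, a branched-chain aminotransferase outside the set, was read at higher levels in every library. It stood at 128 and 140 in ag-10 fhy3-68, 144 and 132 in fhy3-68, 137 and 170 in ag-10, and 141 and 173 in Ler. BCAT1 was not called, with an average effect of -0.18 (SE 0.10, limma adjusted p = 0.222).

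The genes of the set for steps after the aminotransferase had smaller average effects than BCAT2, from 0.14 (ETFQO) to 0.85 (MCCA). Among these set genes limma called IVD alone. Outside the set, AT5G09300 and AT1G06550, from the list of other amino acid breakdown genes described below, fell. IVD (AT3G45300), isovaleryl-CoA dehydrogenase of the leucine branch, stood at 38.4 and 34.9 in ag-10 fhy3-68, 27.1 and 44.4 in fhy3-68, 23.8 and 26.5 in ag-10, and 23.6 and 24.2 in Ler. The first fhy3-68 library lay barely above ag-10 replicate 2, and the average effect was 0.53 (SE 0.15, limma adjusted p = 0.0456). Its call was lost without either Ler library, either ag-10 library or either ag-10 fhy3-68 library, and when values were scaled to library totals. DIN4 (AT3G13450), the E1 beta subunit of the branched-chain keto acid dehydrogenase, gave 76.7 and 120 in ag-10 fhy3-68, 70.6 and 141 in fhy3-68, 57.4 and 52.9 in ag-10, and 58.3 and 58.1 in Ler. It did not overlap between the groups, yet its average effect of 0.78 (SE 0.22, limma adjusted p = 0.0504) fell just short; edgeR and DESeq2 called it at 0.85 each. DIN3 (AT3G06850), the acyltransferase subunit of the same complex, was nearly level, at 70.3 and 84.2 in ag-10 fhy3-68, 67.8 and 88.3 in fhy3-68, 66.7 and 64.1 in ag-10, and 70.5 and 66.7 in Ler (average effect 0.20, SE 0.10, limma adjusted p = 0.187).

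MCCA (AT1G03090) and MCCB (AT4G34030) form 3-methylcrotonyl-CoA carboxylase, and neither was called. MCCA, the biotin-carrying subunit, stood at 49.1 and 88.4 in ag-10 fhy3-68, 39.4 and 106 in fhy3-68, 33.2 and 37.7 in ag-10, and 34.3 and 39.4 in Ler, with fhy3-68 replicate 1 level with Ler replicate 2. Its average effect was 0.85 (SE 0.31, limma adjusted p = 0.0973). MCCB gave 91.8 and 94.9 in ag-10 fhy3-68, 73.3 and 111 in fhy3-68, 69.3 and 76.1 in ag-10, and 74.9 and 75.8 in Ler; fhy3-68 replicate 1 lay below 3 of the 4 libraries without the mutation, and the average effect was 0.31 (SE 0.12, limma adjusted p = 0.119).

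ETFQO (AT2G43400) stood at 30.6 and 33.0 in ag-10 fhy3-68, 27.3 and 35.2 in fhy3-68, 27.8 and 30.2 in ag-10, and 28.5 and 27.4 in Ler. D2HGDH (AT4G36400), which feeds ETFQO with electrons from hydroxyglutarate, gave 34.5 and 29.3 in ag-10 fhy3-68, 24.3 and 31.8 in fhy3-68, 22.8 and 25.1 in ag-10, and 24.1 and 27.0 in Ler. Both genes overlapped between the groups. Their average effects were 0.14 (SE 0.09, limma adjusted p = 0.326) for ETFQO and 0.26 (SE 0.11, limma adjusted p = 0.128) for D2HGDH. ERD5 (AT3G30775), proline dehydrogenase, stood at 212 and 381 in ag-10 fhy3-68, 184 and 426 in fhy3-68, 159 and 83.0 in ag-10, and 125 and 106 in Ler. All fhy3-68 libraries were above the rest, though ag-10 replicate 1 came close. The average effect was 1.29 (SE 0.33, limma adjusted p = 0.036). Its call was lost without either Ler library, ag-10 replicate 2, fhy3-68 replicate 2 or ag-10 fhy3-68 replicate 2.

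Other genes of amino acid breakdown were taken from a list of 21. On average 2 rose, 2 fell and 17 were not called, with a median of 0.12; the share called, 19%, is near the 17.9% of all genes. HGO, homogentisate dioxygenase of tyrosine breakdown, rose by 1.28 (SE 0.29, limma adjusted p = 0.0247), and LKR, the bifunctional first enzyme of lysine breakdown, by 0.56 (SE 0.12, limma adjusted p = 0.0233). AT1G06550 and AT5G09300 fell by 0.58 (SE 0.12, limma adjusted p = 0.0181) and 0.37 (SE 0.07, limma adjusted p = 0.0176); the second was listed as an E1 alpha subunit of the branched-chain keto acid dehydrogenase. Left-out libraries moved the count of 4 between 0 (without either Ler library or ag-10 replicate 1) and 9 (without fhy3-68 replicate 1); it was 2 without ag-10 replicate 2 and 1 without either ag-10 fhy3-68 library.

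The glutamate dehydrogenases return carbon from glutamate to respiration. GDH1 (AT5G18170) stood at 40.2 and 48.0 in ag-10 fhy3-68, 41.6 and 53.8 in fhy3-68, 42.0 and 56.5 in ag-10, and 45.8 and 49.4 in Ler. The groups overlapped throughout, and the average effect was -0.08 (SE 0.13, limma adjusted p = 0.693). GDH2 (AT5G07440) gave 64.0 and 84.6 in ag-10 fhy3-68, 55.2 and 89.7 in fhy3-68, 44.9 and 50.2 in ag-10, and 50.5 and 51.2 in Ler. Its groups did not overlap, and the average effect of 0.55 (SE 0.16) missed the threshold (limma adjusted p = 0.0529) but passed in edgeR and DESeq2, at 0.58 each. The difference between the 2 enzymes was not tested.

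Class II trehalose phosphate synthases carry both a synthase-like and a phosphatase-like domain, and most have no known enzyme activity; several are known as transcripts that rise when sugar runs out. All 4 of the set rose on average. TPS8 (AT1G70290) stood at 131 and 196 in ag-10 fhy3-68, 125 and 269 in fhy3-68, 41.1 and 44.4 in ag-10, and 40.6 and 41.1 in Ler. The 4 libraries without the mutation were close together, and each fhy3-68 library was far above them. TPS8 rose by 1.89 (SE 0.33, limma adjusted p = 0.0493) in ag-10 fhy3-68 against ag-10, by 2.15 (SE 0.33, limma adjusted p = 0.0319) in fhy3-68 against Ler and by 2.02 (SE 0.24, limma adjusted p = 0.00468) on average.

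TPS11 (AT2G18700) reached 107 and 135 in ag-10 fhy3-68 and 88.9 and 189 in fhy3-68, against 43.0 and 46.3 in ag-10 and 44.6 and 49.6 in Ler, without overlap. Its average effect was 1.44 (SE 0.22, limma adjusted p = 0.00846). TPS9 (AT1G23870) gave 74.0 and 109 in ag-10 fhy3-68 and 63.9 and 135 in fhy3-68, against 45.3 and 39.9 in ag-10 and 44.3 and 46.2 in Ler. It rose by 1.05 (SE 0.23, limma adjusted p = 0.0232) on average. That call was lost without either Ler library, either ag-10 library or ag-10 fhy3-68 replicate 2. TPS10 (AT1G60140) gave 84.9 and 107 in ag-10 fhy3-68 and 67.3 and 119 in fhy3-68, against 45.9 and 51.6 in ag-10 and 43.9 and 45.8 in Ler, and rose by 0.97 (SE 0.17, limma adjusted p = 0.0125) on average, a call lost without either Ler library. Both genes kept the fhy3-68 libraries above the rest.

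Among other trehalose phosphate synthases, 4 of 7 listed genes were analysed and moved both ways, with 2 called (50%, against 17.9% of all genes). TPS6 rose by 1.0 (SE 0.21, limma adjusted p = 0.0199) and TPS5 fell by 0.54 (SE 0.09, limma adjusted p = 0.0116) on average. Both are of class II, as is TPS7, which was not called, so the rise did not extend to the whole class. The count of 2 became 0 without either Ler library and 1 without either ag-10 library or ag-10 fhy3-68 replicate 2. Of 10 listed trehalose phosphate phosphatases, which remove the phosphate from the signal, 6 were analysed and 1 was called (16.7%, near the 17.9% of all genes). This was TPPJ, which rose by 1.58 (SE 0.24, limma adjusted p = 0.00846). The count of phosphatases called was higher without fhy3-68 replicate 1.

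At the transcript level KIN10, a catalytic subunit of SnRK1, did not move with these genes. KIN10 (AT3G01090) stood at 76.9 and 73.9 in ag-10 fhy3-68, 68.7 and 76.8 in fhy3-68, 73.9 and 71.2 in ag-10, and 75.6 and 74.3 in Ler. The groups overlapped and spanned a narrow range, with an average effect of 0.01 (SE 0.06, limma adjusted p = 0.959). KIN11, another catalytic subunit and not of the set, overlapped too, at 56.5 to 69.0 with fhy3-68 and 60.4 to 68.1 without. AKINBETA1 (AT5G21170), a regulatory beta subunit, gave 33.6 and 61.0 in ag-10 fhy3-68, 28.7 and 84.5 in fhy3-68, 23.3 and 21.5 in ag-10, and 21.0 and 20.3 in Ler. Its groups did not overlap, but the replicates of each fhy3-68 genotype were far apart, and the average effect of 1.12 (SE 0.33, limma adjusted p = 0.0544) was not called. It passed in edgeR and DESeq2 (1.27 each), without fhy3-68 replicate 1 (1.5) and without fhy3-68 replicate 2 (0.73).

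Of 6 other SnRK1 subunit genes listed, 5 were analysed and 1 rose (20%, near the 17.9% of all genes called). This was KING1 with 0.65 (SE 0.12, limma adjusted p = 0.0148), a call lost without Ler replicate 1 or ag-10 replicate 1. Of the C and S1 groups of bZIP factors, which act with SnRK1, 4 of 9 were analysed, all of the C group. No S1 factor was analysed. Of the 4, BZIP10 was not called and 3 rose (75%, against 17.9% of all genes called). BZIP9 rose by 0.86 (SE 0.12, limma adjusted p = 0.00722), BZIP63 by 0.83 (SE 0.21, limma adjusted p = 0.0359) and BZIP25 by 0.44 (SE 0.07, limma adjusted p = 0.00862). The count was lower without any one Ler, ag-10 or ag-10 fhy3-68 library. Genes of the TOR kinase, the growth-promoting counterpart of SnRK1, and its S6 kinases had a median of 0.03. Of these, 0 of 5 were called by limma or edgeR, where limma called 17.9% of all genes. Among the 5, 1 had an unadjusted p under 0.05 and DESeq2 called 1. Without fhy3-68 replicate 1 or without ag-10 fhy3-68 replicate 1, limma called 1 as well.

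ATG8 proteins are small ubiquitin-like proteins that are joined to a lipid of the growing autophagosome. Per kb of exon, ATG8A had the highest mean, at 80.7 ± 3.58 in ag-10 fhy3-68, 82.4 ± 11.9 in fhy3-68, 76.6 ± 11.1 in ag-10 and 76.6 ± 5.77 in Ler (SD, n = 2 each). In fhy3-68 its spread overlapped those of ATG8F (66.4 ± 25.9) and ATG8E (59.6 ± 29.7). In Ler ATG8A was followed by ATG8F (40.1 ± 2.74), ATG8B (32.9 ± 2.81), ATG8D (31.1 ± 2.29), ATG8E (27.4 ± 5.06), ATG8I (20.3 ± 1.44), ATG8C (18.9 ± 3.39), ATG8G (15.5 ± 0.646) and ATG8H (7.30 ± 1.02). Of these, ATG8B, ATG8D and ATG8E did not differ from each other beyond their spread, nor did ATG8C from ATG8I or from ATG8G. In the double mutant ATG8E (59.2 ± 10.7 in ag-10 fhy3-68, against 27.6 ± 1.83 in ag-10) stood above ATG8B and ATG8D, close behind ATG8F (64.4 ± 5.14 in ag-10 fhy3-68, against 40.0 ± 7.71 in ag-10).

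**Figure D4:**
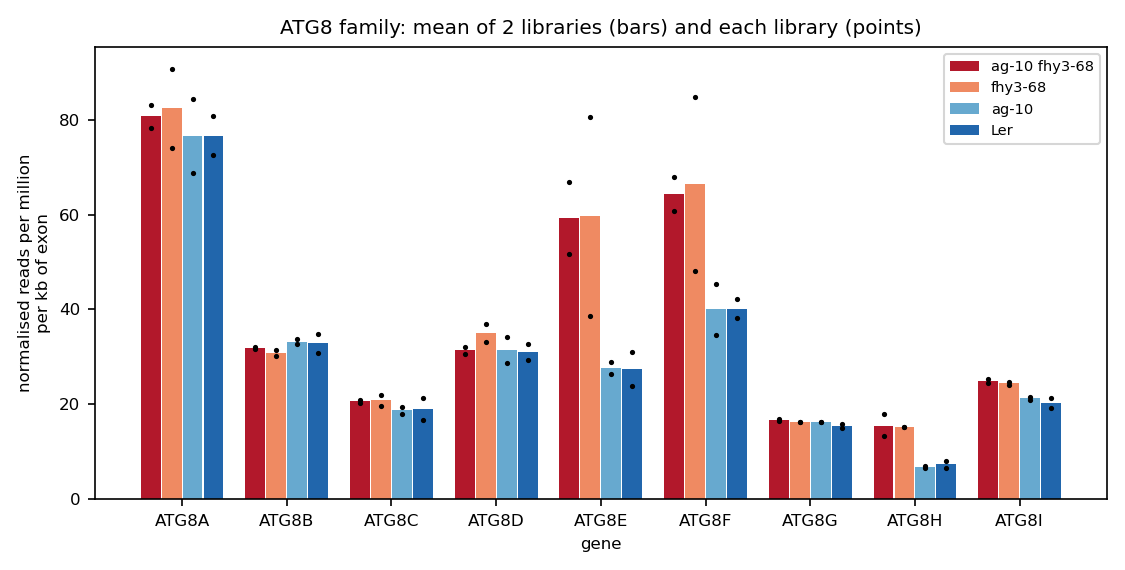
Normalised read counts per kb of exon for the 9 ATG8 genes; bars are the mean of 2 libraries, points the single libraries, and colours the genotypes. ATG8E, ATG8F and ATG8H are higher in ag-10 fhy3-68 and fhy3-68, while ATG8A lies between 76.6 and 82.4 in every genotype.

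ATG8E, ATG8F and ATG8H rose on average and the other 6 were not called. ATG8H (AT3G06420) stood at 12.7 and 9.38 normalised reads in ag-10 fhy3-68, 10.8 and 10.8 in fhy3-68, 4.73 and 4.98 in ag-10, and 4.68 and 5.71 in Ler. It was called in both single comparisons, with 1.09 (SE 0.18, limma adjusted p = 0.0439) in ag-10 fhy3-68 against ag-10 and 1.0 (SE 0.18, limma adjusted p = 0.0401) in fhy3-68 against Ler, and its average effect was 1.05 (SE 0.13, limma adjusted p = 0.00529). ATG8E (AT2G45170) gave 47.2 and 61.2 in ag-10 fhy3-68, 35.4 and 73.8 in fhy3-68, 24.1 and 26.4 in ag-10, and 21.8 and 28.3 in Ler. The 2 groups of 4 were apart, with an average effect of 1.05 (SE 0.22, limma adjusted p = 0.0213). ATG8F (AT4G16520) gave 113 and 127 in ag-10 fhy3-68, 89.6 and 158 in fhy3-68, 64.4 and 84.7 in ag-10, and 71.2 and 78.4 in Ler, and fhy3-68 replicate 1 only just exceeded ag-10 replicate 2 (average effect 0.68, SE 0.18, limma adjusted p = 0.0393). ATG8E and ATG8F lost their calls without either Ler library, either ag-10 library or ag-10 fhy3-68 replicate 2, and ATG8F also without ag-10 fhy3-68 replicate 1.

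ATG8I (AT3G15580) was level within each genotype, at 24.2 and 25.1 in ag-10 fhy3-68, 24.5 and 23.9 in fhy3-68, 20.8 and 21.5 in ag-10, and 19.2 and 21.2 in Ler. The groups did not overlap; its small average effect of 0.24 (SE 0.07, limma adjusted p = 0.054) did not pass. ATG8A, ATG8B, ATG8C, ATG8D and ATG8G had average effects from -0.07 to 0.14, with SE of 0.06 to 0.10. Of 25 other core autophagy genes, 3 rose and 0 fell on average, with a median of 0.17; the share of 12% is near the 10.6% of all genes that were called higher. These were ATG11, a scaffold of the initiating kinase complex, by 0.49 (SE 0.10, limma adjusted p = 0.0213), the lipid transfer protein ATG2 by 0.38 (SE 0.08, limma adjusted p = 0.0206) and ATG18G by 0.36 (SE 0.10, limma adjusted p = 0.0459). Without one library this count ran from 0 (either Ler library, ag-10 replicate 1 or ag-10 fhy3-68 replicate 2) to 10 (fhy3-68 replicate 1), and was 1 without ag-10 replicate 2 or ag-10 fhy3-68 replicate 1.

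The ag-10 mutation moved 0 of the 34 genes past the threshold. In ag-10 fhy3-68 against fhy3-68 the log2 fold changes ran from -0.26 to 0.83 with a median of 0.02, and 0 genes were called, against 0.0% of all genes. In ag-10 against Ler they ran from -0.22 to 0.64 with a median of 0.02, and 0 were called, against 0.00504% of all genes. The interaction, the effect of fhy3-68 in ag-10 minus that in Ler, ran from -0.90 to 0.69 with SE of 0.12 to 1.39, and 0 were called, against 0.00504% of all genes. In these 3 comparisons limma put 0 of the 34 genes at an unadjusted p under 0.05, and edgeR and DESeq2 called 0.

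The 2 libraries of a genotype differed in the same direction for most of these genes. Replicate 2 was above replicate 1 in 28 of 34 genes in ag-10 fhy3-68, 29 in fhy3-68, 26 in ag-10 and 27 in Ler, where 49.5%, 50.1%, 50.3% and 50.1% of all genes were. The median gap was 0.29 on the log2 scale in ag-10 fhy3-68, 0.76 in fhy3-68, 0.12 in ag-10 and 0.14 in Ler. In both fhy3-68 genotypes 25 genes were higher in replicate 2, 2 genes (DIN9 and ATG8H) were higher in replicate 1, and 7 were mixed; for ATG8H the fhy3-68 replicates were almost equal, with a ratio of 0.997. The largest ratios of replicate 2 to replicate 1 in fhy3-68 were 11.1 for SEN1, 8.52 for ASN1, 8.51 for BT2, 4.71 for DIN10, 4.63 for BCAT2, 4.23 for MEE14 and 3.67 for AT3G15450. Across the 34 genes, the gap between the fhy3-68 replicates went with the effect in ag-10 fhy3-68 against ag-10, which uses neither library (Pearson r = 0.93, Spearman rho = 0.84, a description across genes, which are not independent). Labels give no hour or day of harvest, and a part of either in these gaps was not tested.

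Lists of other gene groups, also chosen with earlier results of these data known, moved with fhy3-68 too. Of 10 further genes known from darkness or starvation, 9 rose and 0 fell on average (90%, against 10.6% of all genes called higher, median 1.36). Among them DRM1, a dormancy-associated gene, rose by 3.1 (SE 0.49, limma adjusted p = 0.0095), AT5G22920 by 2.40 (SE 0.40, limma adjusted p = 0.0106), the J-domain protein J8 by 2.40 (SE 0.40, limma adjusted p = 0.0108) and the sugar transporter STP1 by 2.12 (SE 0.38, limma adjusted p = 0.0131). Leaving out Ler replicate 1 lowered this count to 2, and leaving out Ler replicate 2 to 4. Of 10 genes induced by touch, cold or wounding, 8 rose (80%, against 10.6% of all genes called higher, median 2.27), with WRKY40 at 3.85 (SE 0.74, limma adjusted p = 0.0156), TCH4 at 3.33 (SE 0.56, limma adjusted p = 0.0109), ZAT10 at 3.18 (SE 0.64, limma adjusted p = 0.0177) and TCH3 at 2.90 (SE 0.63, limma adjusted p = 0.0227). Their summed level was 603 and 1170 in ag-10 fhy3-68, 1100 and 1350 in fhy3-68, 114 and 375 in ag-10, and 299 and 154 in Ler, and the count was 2 without Ler replicate 2 and 3 without ag-10 fhy3-68 replicate 2.

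Of 6 senescence markers listed, 5 were analysed, without SAG12, and 3 rose (60%, against 17.9% of all genes called). NAP rose by 3.07 (SE 0.35, limma adjusted p = 0.00431), NAC092 by 1.93 (SE 0.26, limma adjusted p = 0.00662) and WRKY53 by 1.93 (SE 0.51, limma adjusted p = 0.0419). WRKY53 overlapped between the groups, at 17.5 in ag-10 replicate 2 and 11.4 in ag-10 fhy3-68 replicate 1. The count was 2 without Ler replicate 1 or 2, ag-10 replicate 1, fhy3-68 replicate 2 or ag-10 fhy3-68 replicate 1. The marker sum was 133 and 90.7 in ag-10 fhy3-68, 66.9 and 112 in fhy3-68, 20.7 and 42.1 in ag-10, and 22.4 and 25.9 in Ler, so all 4 fhy3-68 libraries were above the rest. SAG13, a defining one, was read at 4.55 and 1.97 in ag-10 fhy3-68, 1.75 and 1.01 in fhy3-68, 0.71 and 3.29 in ag-10, and 0.50 and 0.16 in Ler.

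Of the 3 pollen markers 0 were called by limma or edgeR and 1 by DESeq2, and 2 had an unadjusted p under 0.05, where limma called 17.9% of all genes. Their sum was 103 and 19.5 in ag-10 fhy3-68, 73.6 and 22 in fhy3-68, 3.45 and 13.5 in ag-10, and 7.52 and 29.3 in Ler. In both fhy3-68 genotypes this sum was higher in replicate 1, the replicate in which most of the 34 genes were lower. In ag-10 and Ler it was higher in replicate 2, the replicate in which most of the 34 genes were higher. Of the 6 bud markers 3 were called (50%, against 17.9% of all genes). SEP3 rose by 0.23 (SE 0.05, limma adjusted p = 0.0276), while WUS and AP3 fell by 0.45 (SE 0.10, limma adjusted p = 0.0276) and 0.41 (SE 0.12, limma adjusted p = 0.0481). These 3 calls were 0 without either Ler library, ag-10 replicate 1 or either ag-10 fhy3-68 library, and 1 without ag-10 replicate 2. Of 12 circadian clock genes, 11 were analysed and 5 were called (45.5%, against 17.9% of all genes). PRR5 rose by 1.91 (SE 0.37, limma adjusted p = 0.0167), TOC1 by 0.66 (SE 0.16, limma adjusted p = 0.0294), ELF3 by 0.55 (SE 0.14, limma adjusted p = 0.0369) and LUX by 0.47 (SE 0.13, limma adjusted p = 0.0433), and RVE8 fell by 0.61 (SE 0.17, limma adjusted p = 0.0489). The clock count of 5 was 0 without either Ler library or ag-10 fhy3-68 replicate 2, 1 without ag-10 replicate 1 or fhy3-68 replicate 2, and 3 without ag-10 fhy3-68 replicate 1. No marker gene of these lists was at 0 in any library, and their part in the rise of the 17 genes was not tested.

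Some of the 34 gene models lie over another one. In TAIR10.1, 14 overlap another model, 11 of them one that is in the table, and since the use of strand in counting is not given, reads of such pairs cannot be told apart. KFB50 shares 1389 bases, most of its length, with AT3G09275 on the other strand, a model that was not analysed here, so its reads may include that model's. It also shares 160 bases with AT3G59950, which had an average effect of 0.06 (limma adjusted p = 0.606). AT3G15450 shares 41 bases with AT3G15460, which fell by 0.53 (limma adjusted p = 0.0359), against the rise of AT3G15450 itself. BCAT2 shares 161 bases with AT1G10090, at 0.29 (limma adjusted p = 0.0742). ASN1 and DIN10 share 11 and 82 bases with models that were not analysed here.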

How the data were processed

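RNA was sequenced from inflorescences of ag-10 fhy3-68, fhy3-68, ag-10 and Ler, with genotype and replicate number taken from sample titles. The authors deposited a signal per gene, which the values show to be read counts over a size factor of the library, on a scale of 1000000 reads. All values came to whole reads within 0.1 after division by what 1 read is worth (0.0598 to 0.0793). Per the submitters' processing notes, which state no role, the tools were TopHat2 2.0.14, edgeR 3.10.0, HTSeq 0.6.1p1 and CASAVA 1.8. Neither build nor strand use is given in the sources used here. Every gene of the table reached a value of 1 in 2 or more libraries.

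The main test was limma 3.58.1 in R 4.3.3, run on log2(value + 0.5) with its trend option, 1 coefficient for each genotype in a fit of all 8 libraries, 4 residual and 3.41 prior degrees of freedom, two-sided, with Benjamini-Hochberg adjustment over 19853 genes and a call at adjusted p under 0.05. P-values measure the spread between these libraries. Alternatives were edgeR 4.0.16 and DESeq2 1.42.0 on the recovered reads, library totals, pseudocounts of 0.1 and 1, a mean value of at least 5, a replicate block, the compared libraries alone and each library left out. Floors are 3 reads in a library. Names and promoter windows came from RefSeq TAIR10.1, which matched 19811 genes (99.79%). Of 130 entries in 13 gene lists, 115 were analysed. Of each list, up to 4 called genes with the largest average effect are named. The genes and lists were chosen with earlier results of these data known.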

Additional observations from a re-analysis of the deposited data

How the results depend on the processing

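The average effect of FHY3 called 17 of the 34 genes, and 11 of them (ASN1, AT3G15450, ATG8H, BCAT2, BT2, DIN10, KFB50, MEE14, SEN1, TPS11 and TPS8) were called in each of 15 alternatives; the count ran from 11 to 25 with one library left out. In ag-10 fhy3-68 against ag-10 the count of 5 became 3 with library totals, 2 with edgeR, 14 with DESeq2, 3 with a pseudocount of 1, 3 at a mean value of at least 5, 11 with the compared libraries alone and 0 to 19 with one library left out. In fhy3-68 against Ler the count of 7 became 16 with DESeq2, 1 with the compared libraries alone and 0 to 22 with one library left out. The main fit was planned without a replicate block. Same-numbered libraries correlated at -0.11 to 0.45, with the highest value, 0.45, between fhy3-68 and ag-10 fhy3-68. With the replicate block the counts were 13 in ag-10 fhy3-68 against ag-10, 14 in fhy3-68 against Ler and 22 on average. The block added DIN4, MCCA, GDH2, AKINBETA1 and ATG8I on average. Counts over all genes moved likewise. In ag-10 fhy3-68 against ag-10 the 298 became 1066 with DESeq2, 504 with the compared libraries alone, 927 with the block and 1 to 1820 with one library left out; in fhy3-68 against Ler the 605 became 1483, 345, 1849 and 1 to 3399; on average the 3553 became 4925 with the block and 929 to 6370.

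Signs changed for genes near 0 that were not called; the cause was not tested. In fhy3-68 against Ler, values with one library left out ran from -0.02 to 0.36 for DIN3, -0.04 to 0.56 for MCCB, -0.03 to 0.33 for ETFQO, -0.06 to 0.32 for D2HGDH, -0.19 to 0.18 for GDH1, -0.13 to 0.03 for KIN10, -0.05 to 0.25 for ATG8A and -0.04 to 0.32 for ATG8C; GDH1 was 0.00 in edgeR and 0.01 in DESeq2. In ag-10 fhy3-68 against ag-10 they ran from -0.36 to 0.06 for GDH1, -0.06 to 0.23 for ATG8A and -0.12 to 0.13 for ATG8D; ATG8D was -0.03 with library totals and 0.00 in edgeR, and ATG8G 0.00 with library totals. On average they ran from -0.18 to 0.03 for GDH1 and -0.03 to 0.05 for KIN10, which was -0.04 with library totals. BT2 had 4 reads in Ler, and depth limits its fold there.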
